A study of Mus musculus with 51 samples.

Results

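The genes followed here are Ubb and Rps27a, which both encode ubiquitin, and they were chosen by name as 2 of the 40077 genes in the deposited tables, with each gene matched to a single entry. Ubiquitin is a small protein that is joined to other proteins, often as a chain that sends them to the proteasome. UBA1 is the main activating (E1) enzyme that starts this process. Cells make ubiquitin only as longer precursors, which deubiquitinases cut into single units: Ubb is a polyubiquitin gene, known as a gene that proteotoxic stress can induce, whereas Rps27a encodes a single ubiquitin fused to a protein of the small ribosomal subunit and is usually expressed along with ribosomal protein genes.

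Bulk RNA-seq covered 35 mouse tumors and 16 cultures of cells in 16 groups, in a study of what Uba1 does in tumors and in the response to interferon. Subcutaneous tumors of the prostate cancer line Myc-CaP, grown in FVB mice, comprised 3 with the nontargeting guide (sgNC) and 7 with a guide against Uba1 (sgUba1), 3 with an empty vector and 4 with lentiviral Uba1 overexpression from a CMV promoter (Uba1 OE), and 6 from mice given vehicle and 5 from mice given intravenous TAK-243, an inhibitor of UBA1. Tumors of the melanoma line B16-BL6, grown in C57BL/6 mice, comprised 3 with sgNC (numbered 1, 2 and 4) and 4 with sgUba1. Myc-CaP cells were wild type and treated with nothing, with 50 nM TAK-243, with IFN-γ or with both, or carried sgNC or sgUba1 with PBS or IFN-γ, with 2 cultures in each of these 8 groups. The sgUba1 lines were grown from single cells and lost only part of Uba1, and the paper used independent guides against Uba1. Tumors were placed in both flanks of a mouse. The labels gave neither the mouse, the guide nor the clone, so p-values measure the spread between these samples. In bulk tumors, fewer cells of a type and less RNA per cell cannot be told apart.

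Total expected counts ran from 8651963 to 38032284 per library, and each library held 3990 to 29542 counts of Ubb and 4821 to 28889 of Rps27a. Both genes passed the filter on low counts in all 6 experiments. Levels of Uba1 followed the labels in Uba1 OE tumors, in sgUba1 cells and in B16-BL6 sgUba1 tumors, the last with 208 to 247 CPM (counts divided by the library's total, with TMM scaling between libraries) against 410 to 455 in sgNC. In the Myc-CaP sgUba1 tumors they did not in every library: tumors labelled sgUba1 with replicate numbers 1, 2 and 3 had 197, 202 and 211 CPM, those numbered 4 to 7 had 361 to 383 CPM, and the sgNC tumors had 320 to 337 CPM. The tumor lines carried their markers, as the melanocyte markers summed to 10270 to 12230 TPM in B16-BL6 tumors and to at most 16.3 TPM in all Myc-CaP libraries. Prostate epithelial markers summed to 1089 TPM or more in every Myc-CaP library without TAK-243 and in the tumors given it, and to 467 to 513 TPM in cells with TAK-243, against 164 to 196 TPM in B16-BL6 tumors, and up to 2 of the 6 were at 0 in every library of a group.

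Ubb and Rps27a both lie on chromosome 11 of the mouse genome (GRCm38, GENCODE M21), Ubb at chr11:62551171-62553213 on the plus strand and Rps27a at chr11:29545846-29548109 on the minus strand. The coding sequence of Ubb is a single exon with 4 ubiquitin units of 228 bases in a row plus 3 bases, and that of Rps27a is spread over 5 coding exons with 1 ubiquitin unit followed by 240 bases of ribosomal protein. All 4 Ubb units translate to the same 76 residues as the Rps27a unit. The second Ubb unit (chr11:62552374-62552601, coding exon) and the Rps27a unit (chr11:29546384-29547728, 4 coding exons) are shown because they make the same protein from different RNA. Capitals mark the 44 bases at which these 2 units differ.
Ubb unit: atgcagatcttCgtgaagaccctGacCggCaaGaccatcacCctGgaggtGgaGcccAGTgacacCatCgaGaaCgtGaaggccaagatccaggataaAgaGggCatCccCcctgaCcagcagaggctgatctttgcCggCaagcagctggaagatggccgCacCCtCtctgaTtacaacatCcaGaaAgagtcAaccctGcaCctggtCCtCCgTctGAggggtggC
Rps27a unit: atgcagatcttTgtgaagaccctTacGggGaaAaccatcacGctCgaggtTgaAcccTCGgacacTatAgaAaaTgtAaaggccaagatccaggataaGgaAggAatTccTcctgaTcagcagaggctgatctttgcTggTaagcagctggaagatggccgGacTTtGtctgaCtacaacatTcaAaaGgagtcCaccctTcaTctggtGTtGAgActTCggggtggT
The differences were spread along the unit, and no stretch of 31 bases was shared between any transcript of Ubb and any of Rps27a. By contrast, the units of Ubb differed from each other at only 2 to 10 of 228 bases.

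Ubb has a processed copy with nearly its sequence. The table lists it as Ubb-ps, and GENCODE M21 lists the same gene ID as Gm1821, a transcribed processed pseudogene at chr14:46084028-46085000 on the plus strand. A stretch of it (chr14:46084354-46084581) is shown because it equals the second Ubb unit at all 228 bases, so it has no capitals.
Ubb-ps stretch: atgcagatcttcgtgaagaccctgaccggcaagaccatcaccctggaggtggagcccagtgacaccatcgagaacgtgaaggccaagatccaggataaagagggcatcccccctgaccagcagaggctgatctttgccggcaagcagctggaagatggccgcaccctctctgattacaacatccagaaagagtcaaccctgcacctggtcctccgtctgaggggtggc
The copy has 2 annotated transcripts. Of the 643 distinct words of 31 bases in one, 552 also occur in the longer transcript of Ubb, as do 393 of the 400 in the other. The copy took 24.4% to 30.0% of the summed counts of Ubb and Ubb-ps in each of the 44 Myc-CaP libraries, but 0.123% to 0.303% in each of the 7 B16-BL6 tumors, where 33 to 71 counts were assigned to it. For Rps27a, the 2 listed copies held at most 6.86 counts together in any library.

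**Figure D1:**
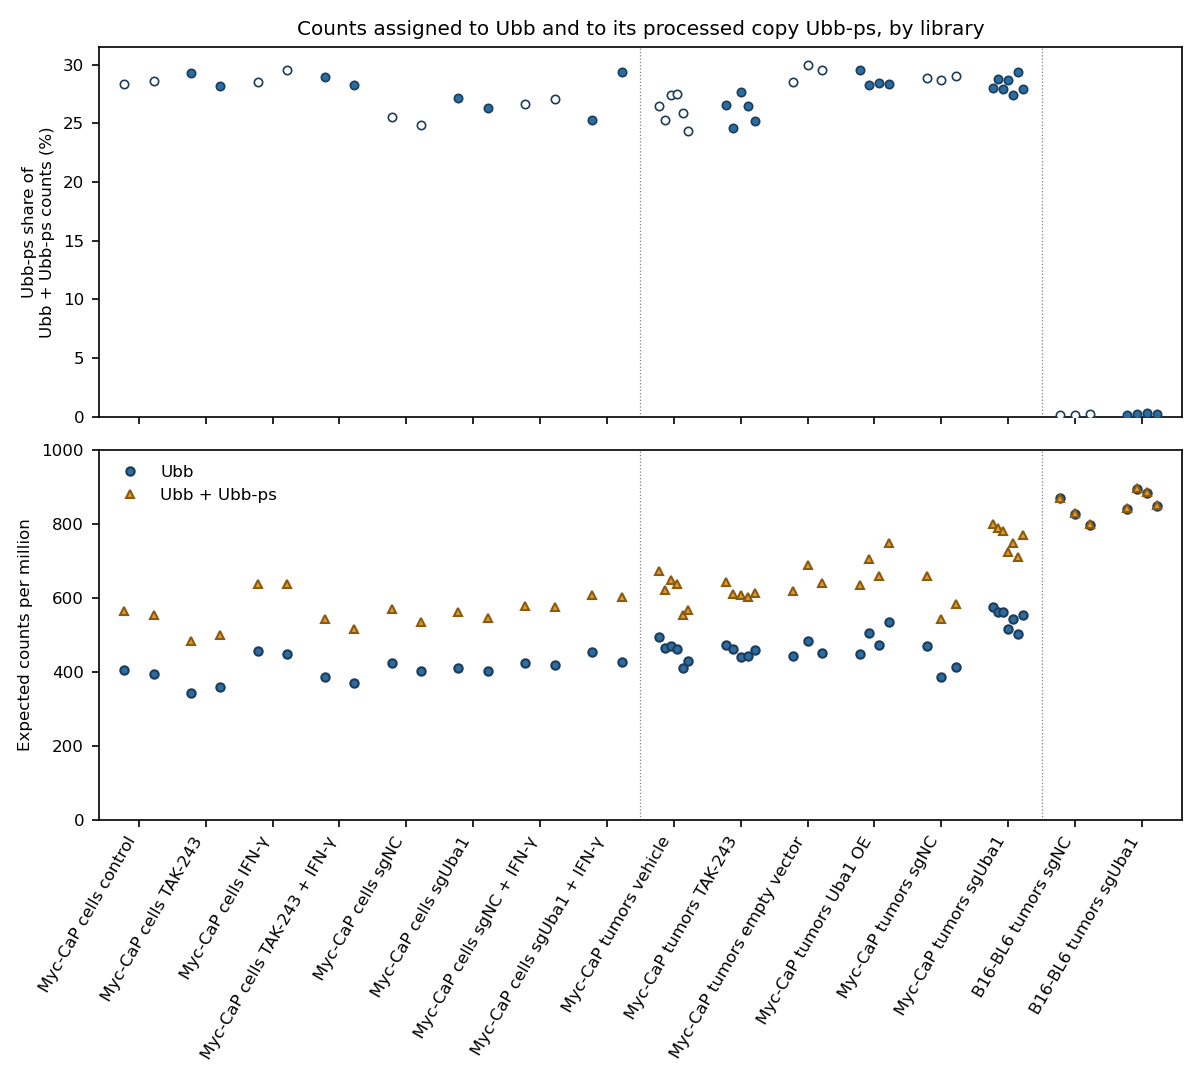
The upper panel plots, for each library, the share of the summed expected counts of Ubb and Ubb-ps that was assigned to Ubb-ps (%), and the lower panel plots CPM without TMM scaling for Ubb alone (circles) and for Ubb plus Ubb-ps (triangles), by group; filled points in the upper panel are libraries with TAK-243, sgUba1 or Uba1 OE and open points are the others. The share lies between 24.4% and 30.0% in all Myc-CaP libraries and under 0.31% in all B16-BL6 tumors.

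On the TPM scale (counts corrected for transcript length and library size), Rps27a was the more abundant of the genes in all 51 libraries. Rps27a ranked between 25 and 99 (median 67) among the 40077 genes of a library, and Ubb ranked between 143 and 327 (median 214). Ubb without its copy reached 19.4% to 39.8% of the Rps27a level in Myc-CaP libraries and 58.0% to 65.3% in B16-BL6 tumors. Ubb-ps had 427 to 722 TPM in Myc-CaP libraries, near the level of Ubb, and 3.38 to 8.26 TPM in B16-BL6 tumors. The lower share in Myc-CaP libraries therefore holds only with the copy left out. Ubb was lowest in cells with TAK-243 (407 ± 10.8 TPM, SD, n = 2) and in those with TAK-243 and IFN-γ (420 ± 10.8, n = 2), whose ranges overlapped. The other 6 groups of cells had means of 433 to 477 TPM, of which the control cells, the IFN-γ cells and the sgNC cells with IFN-γ overlapped no other group, and the 6 groups of Myc-CaP tumors followed, from 508 ± 26.3 TPM in sgNC (n = 3) to 630 ± 49.3 in sgUba1 (n = 7), with each group overlapping the next. The B16-BL6 tumors were highest, with 924 ± 38.9 TPM in sgNC (n = 3) and 975 ± 18.0 in sgUba1 (n = 4). Their Ubb levels of 890 to 999 TPM lay above every Myc-CaP level, of which the highest was 697 TPM. Adding the copy narrowed this gap by counts. Without TMM scaling Ubb alone had 796 to 894 CPM in B16-BL6 tumors and 342 to 576 in Myc-CaP libraries, but with Ubb-ps added the values were 798 to 895 and 484 to 800. The ranges then met through a single Myc-CaP tumor (sgUba1 replicate 1, at 800) and a single B16-BL6 tumor (sgNC replicate 4, at 798), while the group means of 832 and 868 CPM in B16-BL6 tumors stayed above the highest Myc-CaP group mean of 760. On the TPM scale Ubb-ps had means of 665 in Myc-CaP sgUba1 tumors and 5.80 in B16-BL6 sgUba1 tumors. Adding it on that scale would put the mean of every Myc-CaP tumor group above those of the B16-BL6 tumors. Which line is higher with the copy added therefore depends on the scale. The tumor line, the mouse strain and the experiment cannot be told apart in these differences.

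The order was another for Rps27a. B16-BL6 tumors had the lowest means, 1531 ± 48.1 TPM in sgNC (n = 3) and 1552 ± 51.1 in sgUba1 (n = 4), and these ranges overlapped. Cells had means from 1682 TPM with IFN-γ to 2065 TPM with sgUba1 and IFN-γ. Most Myc-CaP tumor groups were higher, with 2123 ± 69.4 TPM in empty-vector tumors (n = 3), 2397 ± 208 with vehicle (n = 6) and 2457 ± 156 with Uba1 OE (n = 4), whereas the sgNC tumors had 1760 ± 191 (n = 3). Neighbours in this order overlapped except at 3 steps, namely above the B16-BL6 sgUba1 tumors, above the untreated control cells and above the cells with TAK-243 and IFN-γ.

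**Figure D2:**
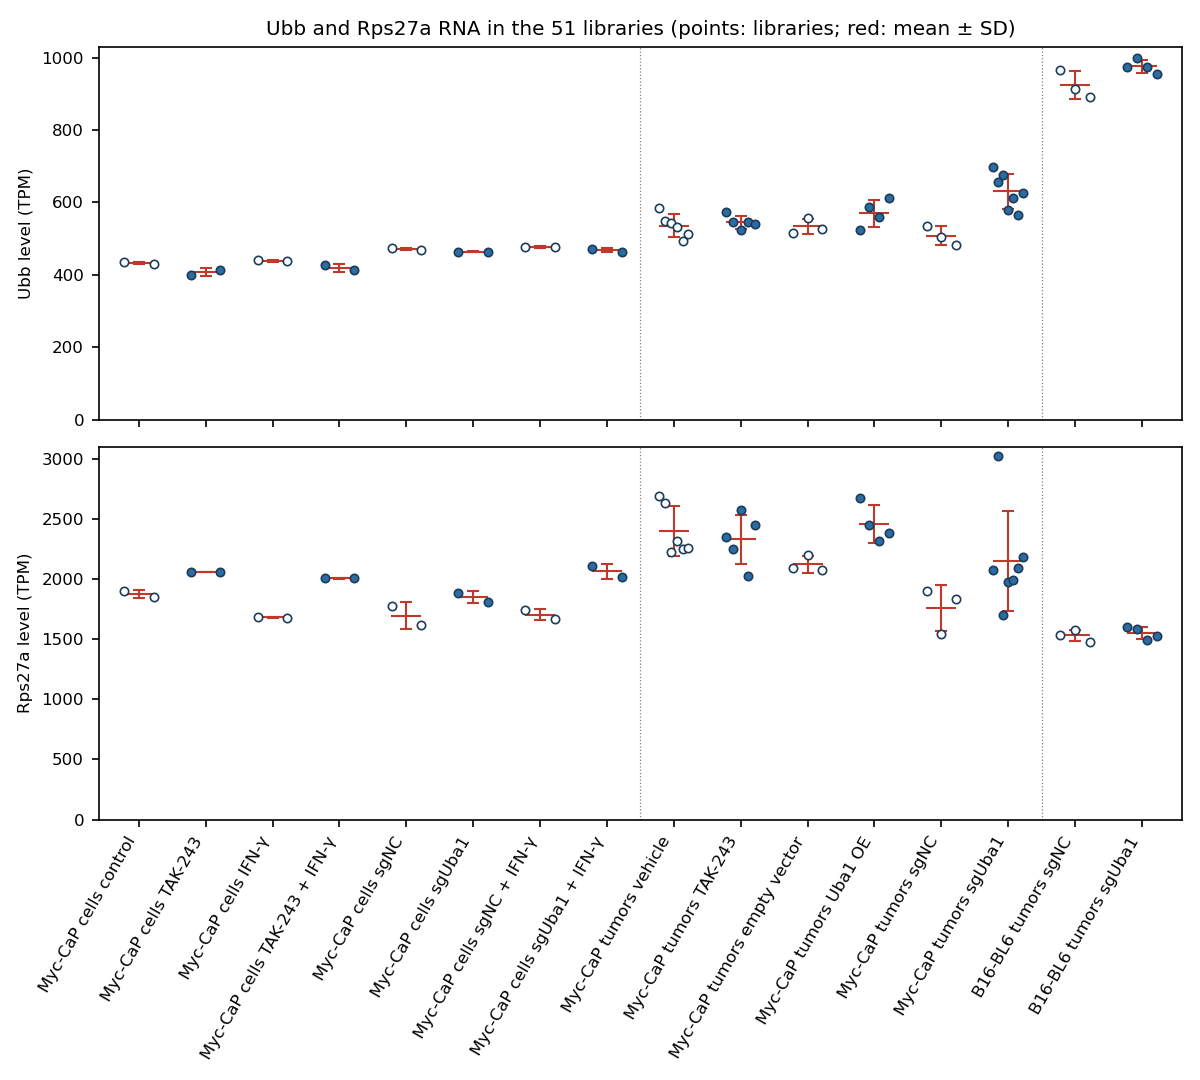
The panels plot the TPM of Ubb (upper) and Rps27a (lower) for each of the 51 libraries by group, with the mean ± SD in red; filled points are libraries with TAK-243, sgUba1 or Uba1 OE, open points are the others, and dotted lines part cells, Myc-CaP tumors and B16-BL6 tumors. Ubb is highest in B16-BL6 tumors (890 to 999 TPM), where Rps27a is low (1481 to 1605 TPM).

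The first question was whether the ubiquitin genes moved when UBA1 was inhibited in cells. With 50 nM TAK-243, Rps27a rose slightly and Ubb fell slightly, while genes of the heat shock response rose by far more. Without IFN-γ, Ubb was at 384 and 376 CPM in control cells and at 352 and 370 CPM with TAK-243. Each treated culture was below each control. With 2 cultures a group such a separation says little, and its share over all genes was not counted in cells. For Ubb the log2 fold change was −0.07 (SE 0.032, 95% interval −0.14 to −0.01, adjusted p = 0.047, edgeR), in a comparison in which 66.3% of the genes tested were called. This call was lost with RLE normalization (adjusted p = 0.0813), with DESeq2 (adjusted p = 0.13), with the counts of Ubb-ps added (adjusted p = 0.0545) and without control replicate 1 (adjusted p = 0.195, edgeR), and without TAK-243 replicate 2 the fold change was −0.16. Rps27a was at 614 and 598 CPM in control cells and rose to 668 and 675 CPM, by 0.15 on the log2 scale (SE 0.027, adjusted p = 2.05e-05, edgeR), and by 0.09 without TAK-243 replicate 2.

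Under IFN-γ the pair again moved in opposite directions. Ubb was at 453 and 450 CPM with IFN-γ alone and at 395 and 380 CPM with TAK-243 and IFN-γ. It fell by 0.22 on the log2 scale (SE 0.031, 95% interval −0.29 to −0.16, adjusted p = 2.67e-07, edgeR). Rps27a was at 636 and 639 CPM with IFN-γ alone and at 685 and 678 CPM with both agents, a rise of 0.10 (SE 0.027, adjusted p = 0.00284, edgeR). Here 68.2% of the genes tested were called, so that a call alone says little about a member. The change of Ubb under IFN-γ was smaller on the TPM scale, at −0.06 (adjusted p = 0.119, limma on log2(TPM + 1)). On that scale the median of all tested genes rose by 0.12, and relative to it Ubb was at −0.19 and Rps27a at 0.13. Relative to the median of genes with a mean log2 CPM of at least 3, Ubb was at −0.12 and Rps27a at 0.20. Without IFN-γ Ubb was at −0.10 relative to all tested genes and at −0.03 relative to the genes above that floor. By counts, the 68 genes within 5 Mb of Ubb with a mean log2 CPM of at least 3 had a median of −0.21 without IFN-γ and −0.32 with it. Over all genes that reached this floor the medians were −0.06 and −0.12.

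The ratio of the genes within a library does not depend on the scaling between libraries. Ubb stood at 22.9% and 23.2% of the Rps27a TPM in control cells and at 19.4% and 20.1% with TAK-243. With IFN-γ it stood at 26.16% and 26.03%, and with both agents at 21.3% and 20.5%. The ratio was therefore lower in every culture with TAK-243 than in its matched controls, by 0.22 on the log2 scale without IFN-γ and by 0.32 with it. No test was run on the ratio, and it shows only that the genes changed unequally.

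Many genes of the ubiquitin and stress pathways had larger changes than either ubiquitin gene in these cells. Over all genes tested, 66.3% were called without IFN-γ and 68.2% with it. Of the 19 heat shock factor targets tested, which are chaperone genes, 16 rose and 1 fell without IFN-γ (median log2 fold change 0.945, against 0.03 over all genes tested), and 16 rose and 1 fell with it (median 0.84, against 0.02). The small heat shock protein Hspb1 rose by 3.50 and 3.52, and the HSP90 gene Hsp90aa1 by 1.90 and 2.01, without and with IFN-γ. The inducible HSP70 genes Hspa1a and Hspa1b rose by 1.44 and 1.53 without IFN-γ, the constitutive HSP70 gene Hspa8 by 1.37, and their partner Dnajb1 by 1.45 (edgeR adjusted p at most 1.86e-17 for each). The co-chaperone Fkbp4 was the gene of this list that fell, by 0.30 and 0.42. Among 14 genes of proteotoxic and oxidative stress 9 rose and 4 fell in both settings, led by the stress transcription factors Ddit3 (3.87 without IFN-γ) and Atf3 (3.31). Of 33 genes of the 26S proteasome, 25 rose and 4 fell without IFN-γ (median 0.23). With IFN-γ 18 rose and 6 fell (median 0.14), a share called near that over all genes. Psmb2 rose by 0.71 and Psmd7 fell by 1.05 without IFN-γ.

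Of 11 deubiquitinases that process ubiquitin precursors or recycle ubiquitin, 8 were higher and 3 lower in each setting. Among them Uchl1 rose by 0.70 and the proteasome-bound Usp14 by 0.23, and Otub1 fell by 0.33 without IFN-γ. Of 16 tested ubiquitin-like modifiers and fusions, 12 rose and 3 fell without IFN-γ (median 0.38) and 10 rose and 3 fell with it (median 0.25). The autophagy modifiers Atg12 and Map1lc3b rose most, by 1.46 and 1.37 without IFN-γ, and Uba1 itself rose by 0.37 and 0.20. For ribosomal protein genes the shares called lay near or under the background of 66.3% without and 68.2% with IFN-γ. Of 32 small-subunit genes, 13 rose and 6 fell without IFN-γ (median 0.04), but 5 rose and 17 fell with it (median −0.11), while Rps27a was at 0.10. Fau, which like Rps27a encodes a ubiquitin-like unit fused to a small-subunit protein, rose by 0.19 without IFN-γ (adjusted p = 9.72e-07, edgeR) and stood at 0.02 with it (adjusted p = 0.64). The large-subunit genes went from 23 higher and 7 lower of 46 to 10 higher and 19 lower.

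**Figure D3:**
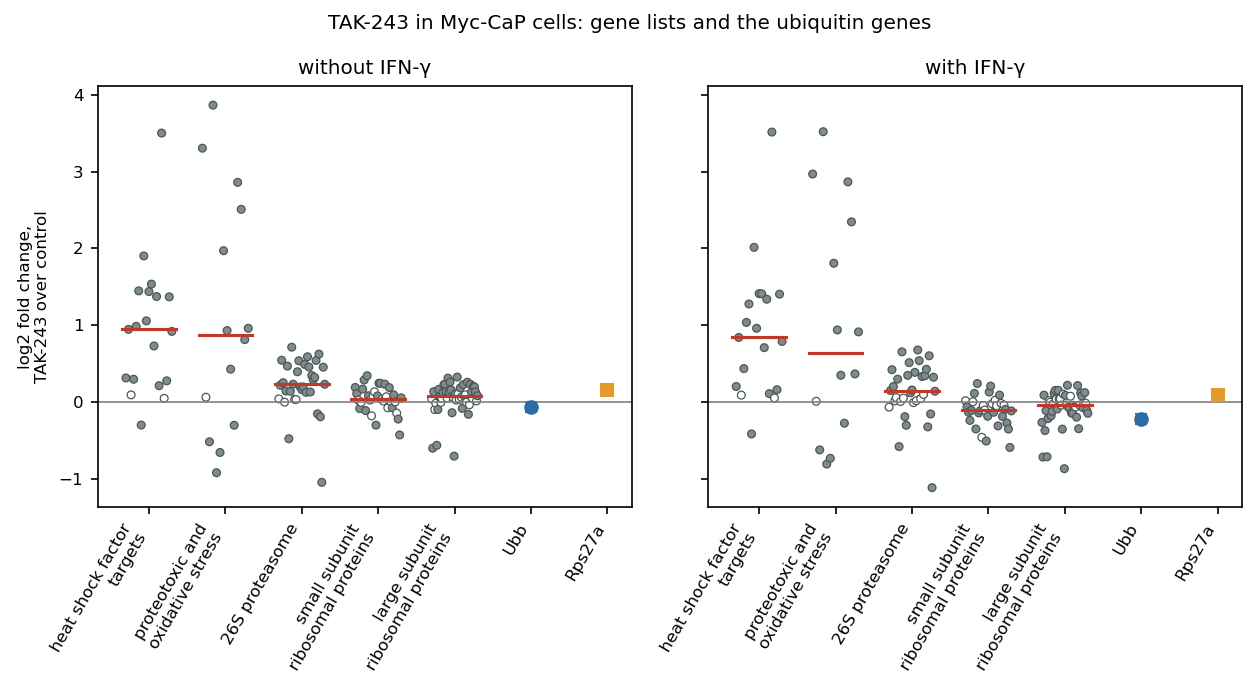
Each point is the log2 fold change of a gene with TAK-243 against control in Myc-CaP cells, without IFN-γ (left) and with it (right), for genes of 5 lists (filled, adjusted p under 0.05; red bars, medians), with Ubb and Rps27a at the right with 95% intervals. The heat shock list has medians of 0.945 and 0.84, while Ubb lies at −0.07 and −0.22 and Rps27a at 0.15 and 0.10.

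Some letter patterns of a heat shock element were also looked for in the 250 bases before gene starts (RefSeq, GRCm38.p6). The 8-letter motif GAANNTTC, which reads the same on both strands, was in 6.69% of 32851 promoters and in those of 7 of the 16 heat shock list genes that had an entry, Hspa1a, Hspa1b and Hspb1 among them. It was in 0 of the 2 Ubb entries, and Rps27a had no entry. This says only that these letters are not in these windows.

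IFN-γ alone was compared with no stimulus in both experiments on cells. In the wild-type cells Ubb rose from 384 and 376 CPM to 453 and 450 CPM, by 0.25 on the log2 scale (SE 0.031, adjusted p = 3.4e-07, edgeR), where 29% of genes were called. Rps27a stood at 614 and 598 CPM and at 636 and 639 CPM, a difference of 0.07 (SE 0.027, adjusted p = 0.0435, edgeR). Neither kept this value on the TPM scale. There Ubb was at 0.02 (adjusted p = 0.7, limma), and Rps27a was reversed, at −0.16 (adjusted p = 0.00655, limma). The median of all tested genes was −0.14 on that scale, and relative to it Ubb was at 0.16 and Rps27a at −0.02, so the sign of the Rps27a change rested on the scaling. Its call was also lost when only the 4 libraries compared were fitted (0.03, adjusted p = 0.281, edgeR) and without IFN-γ replicate 1, IFN-γ replicate 2 or control replicate 2 (adjusted p of 0.0971, 0.174 and 0.328, edgeR). In the same comparison 26 of 32 small-subunit and 39 of 46 large-subunit ribosomal protein genes were higher by counts and 0 were lower, with medians of 0.23 and 0.21.

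The effect of IFN-γ on Ubb was lower with TAK-243 than without it by 0.15 (SE 0.045, 95% interval −0.24 to −0.06), which did not pass the test (adjusted p = 0.0697, edgeR, 2.38% of genes called). With 1 library left out it ranged from −0.17 to −0.071, the latter without TAK-243 replicate 2 (adjusted p = 0.489, edgeR). It passed without the filter on low counts (adjusted p = 0.0346), in limma-voom (0.0444) and with the copy added (0.029), and was at 0.02 on the TPM scale (adjusted p = 0.836, limma). For Rps27a the difference in effects was −0.05 (adjusted p = 0.571, edgeR) and turned to 0.12 on the TPM scale (adjusted p = 0.193, limma), while 15 of 32 small-subunit and 16 of 46 large-subunit genes were lower in it and 0 were higher. In sgNC cells, IFN-γ left Ubb at 441 and 438 CPM against 418 and 403 (0.10, adjusted p = 0.249) and Rps27a at 599 and 575 CPM against 583 and 522 (0.09, adjusted p = 0.422, edgeR), where 3.88% of genes were called. The Rps27a cultures overlapped there and the Ubb cultures did not, which says little with 2 cultures a group. On the TPM scale the differences were 0.017 for Ubb and 0.0091 for Rps27a. Without sgNC replicate 1 the Rps27a difference was 0.17 (adjusted p = 0.0219, edgeR).

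With partial loss of Uba1 in cells Ubb did not pass the test, and Rps27a was higher under IFN-γ. Uba1 fell to 295 and 283 CPM in sgUba1 cells from 533 and 526 in sgNC cells, and to 269 and 275 from 585 and 600 under IFN-γ. Ubb was at 401 and 394 CPM in sgUba1 cells against 418 and 403 in sgNC cells (−0.05, 95% interval −0.15 to 0.06, adjusted p = 0.521, edgeR). Under IFN-γ it was at 446 and 419 CPM against 441 and 438 (−0.02, 95% interval −0.13 to 0.08, adjusted p = 0.734). Rps27a was at 603 and 573 CPM against 583 and 522 without IFN-γ, and these ranges overlapped (0.09, adjusted p = 0.316, edgeR). Without sgNC replicate 1 this difference was 0.17 and passed (adjusted p = 0.0103, edgeR).

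Under IFN-γ, Rps27a was at 728 and 678 CPM in sgUba1 cells and at 599 and 575 in sgNC cells. The rise was 0.26 on the log2 scale (SE 0.062, 95% interval 0.12 to 0.40, adjusted p = 0.00572, edgeR). This was in a comparison in which 39.4% of genes were called, against 29.7% without IFN-γ. The call was lost on the TPM scale (0.28, adjusted p = 0.0567, limma) and without sgNC + IFN-γ replicate 2 (0.23, adjusted p = 0.0727, edgeR). The effect of IFN-γ on Rps27a was not shown to differ between sgUba1 and sgNC cells (0.17, adjusted p = 0.292), nor was that on Ubb (0.02, adjusted p = 0.888, edgeR, 4.64% of genes called). Of the small-subunit genes, 10 of 32 rose and 1 fell with sgUba1 under IFN-γ (median 0.09), with Rps29 highest at 0.85. Heat shock factor targets leaned to the lower side, with 2 of 19 higher and 9 lower (median −0.19), among which Hspb1 fell by 1.22, Hspa1a by 0.63 and Hspa1b by 0.35.

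**Figure D4:**
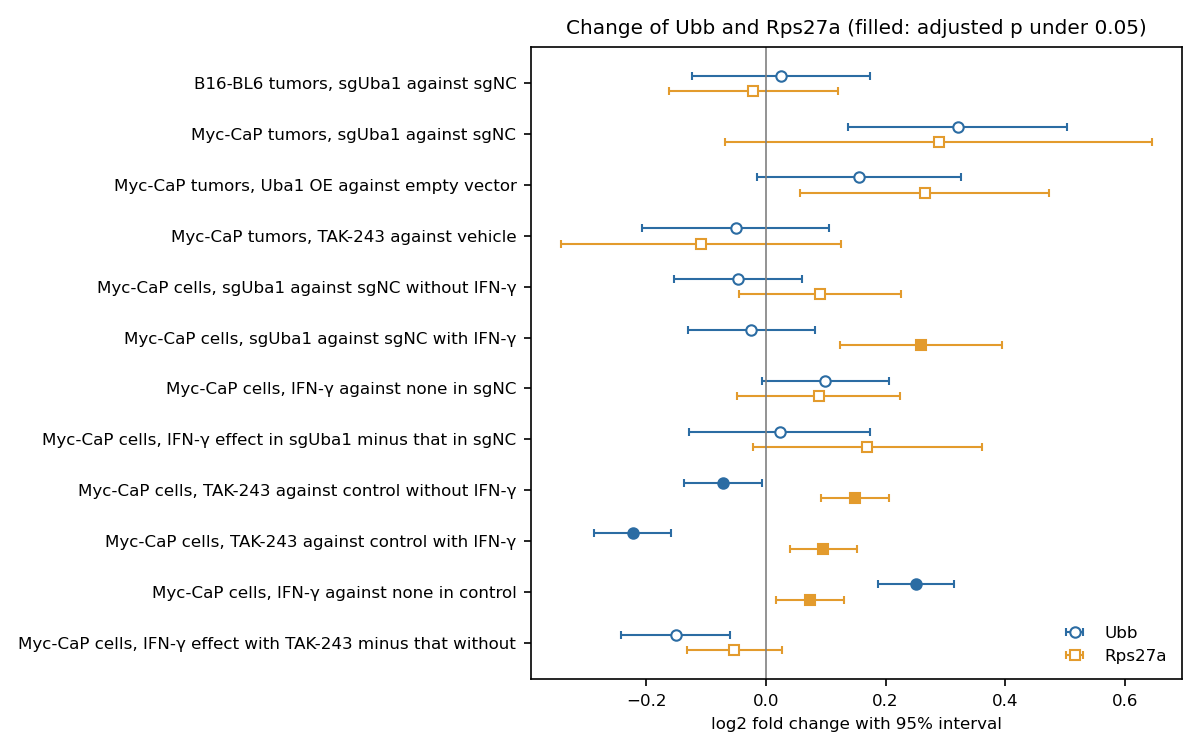
The plot gives the log2 fold change of Ubb (circles) and Rps27a (squares) in the 12 comparisons, with 95% intervals from edgeR; filled symbols have an adjusted p under 0.05 and open ones do not. Filled symbols appear only in cells, where Ubb lies at −0.22 with TAK-243 under IFN-γ and at 0.25 with IFN-γ alone, and the wider intervals of the tumors include the largest fitted value, 0.32.

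In tumors, neither gene passed the test in any of the 4 comparisons by edgeR. At an unadjusted p under 0.05 there was 1 of the 2 genes in the Myc-CaP sgUba1 comparison (Ubb), 1 with Uba1 OE (Rps27a) and 0 in the others, and DESeq2 called Ubb in the first. Over all genes tested, 3835 of 16202 were under that p with sgUba1 in Myc-CaP tumors and 2698 of 14853 with Uba1 OE. With TAK-243 there were 2587 of 17299, and in B16-BL6 tumors 2861 of 17539. DESeq2 called 1820, 695, 542 and 523 genes in these comparisons. Counts of members or lists at that p or by DESeq2 are to be read against these. The largest difference was that of Ubb in the Myc-CaP sgUba1 experiment. The sgNC tumors had 467, 414 and 416 CPM of Ubb, and the 7 tumors labelled sgUba1 had 510 to 582 CPM (median 536). All 7 were above all 3, as was the case in either direction for 10.9% of genes. The log2 fold change was 0.32 (SE 0.083, 95% interval 0.14 to 0.50), which missed the threshold (adjusted p = 0.0621, edgeR, 3.04% of genes called) and passed it with DESeq2 (adjusted p = 7.14e-04). That background of 492 called genes rested on single tumors, with 10 called without sgNC replicate 2, 14 without sgUba1 replicate 4 and 35 without sgNC replicate 3 (edgeR). Ubb-ps was at 0.28 (adjusted p = 0.0707, edgeR), and Ubb with the copy added at 0.31 (adjusted p = 0.0653).

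Both sets of tumors labelled sgUba1 had the higher Ubb levels. The labels do not say whether both sets came from the same guide or clone, and these tumors may mix lines. Replicates 1, 2 and 3, in which Uba1 was low, had 539, 525 and 533 CPM of Ubb, and replicates 4 to 7, in which Uba1 was not low, had 536, 582, 510 and 556 CPM. With replicates 4 to 7 left out, which was chosen after seeing the data, the fold change was 0.29 (adjusted p = 0.183, edgeR). Chromosome 11 as a whole stood apart in replicates 4 to 7: over genes with a mean log2 CPM of at least 3, the median difference of its genes from the sgNC mean was 0.28 to 0.38 there and 0.05 to 0.11 in replicates 1 to 3, while the median over all genes stayed between −0.01 and 0.02. Near Ubb the shift in replicates 4 to 7 was smaller, with medians of 0.08 to 0.14 over 80 genes within 5 Mb. In replicates 1 to 3 these medians were 0.03 to 0.06. By the fitted fold change over all 7 tumors, the median was 0.08 over 83 genes within 5 Mb of Ubb and 0.24 over chromosome 11. Of the 83 genes, 2 were called higher and 1 lower. Macrophage markers summed to 477 to 864 TPM in the tumors labelled sgUba1 and to 284 to 521 in sgNC, and 3 of 8 passed the test as higher (median log2 fold change 0.691, edgeR). T and NK cell markers summed to 11.4 to 20.8 TPM against 8.72 to 10.95, with 0 of 4 tested markers called. Fibroblast markers summed to 263 to 916 TPM against 210 to 424 (median 0.678, 0 of 6 called), and skeletal muscle markers to 6.09 to 85.6 TPM against 4.17 to 9.33 (median 2.86, 0 of 4 called). All markers of these 4 lists were detected in both groups, and the part of these cells in the Ubb result was not tested.

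Rps27a varied more in these tumors. It was at 625, 485 and 601 CPM in sgNC and at 609, 906, 509, 694, 713, 708 and 741 CPM in the tumors labelled sgUba1, in order of replicate. The groups overlapped, and the difference of 0.29 (SE 0.16, 95% interval −0.07 to 0.65) did not pass (adjusted p = 0.309, edgeR). Replicate 2, with 3024 TPM, lay far above the rest. In that tumor the median of the 29 genes within 5 Mb of Rps27a was 0.08 above the sgNC mean. This median was 0.06 and 0.07 in replicates 1 and 3, and 0.12 to 0.20 in replicates 4 to 7. Without sgUba1 replicate 2 the fold change was 0.21, and without sgNC replicate 2, the lowest, it was 0.18. Of the ribosomal protein genes in this experiment, 0 of 32 small-subunit genes were higher and 1 was lower by edgeR (5 at an unadjusted p under 0.05, and 2 called by DESeq2), and 0 of 46 large-subunit genes were called (5 at an unadjusted p under 0.05, and 2 by DESeq2). Of 20 heat shock factor targets 0 were higher and 1 was lower by edgeR (2 at an unadjusted p under 0.05, and 2 called by DESeq2), with a median of 0.285 against 0.00 over all genes tested.

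**Figure D5:**
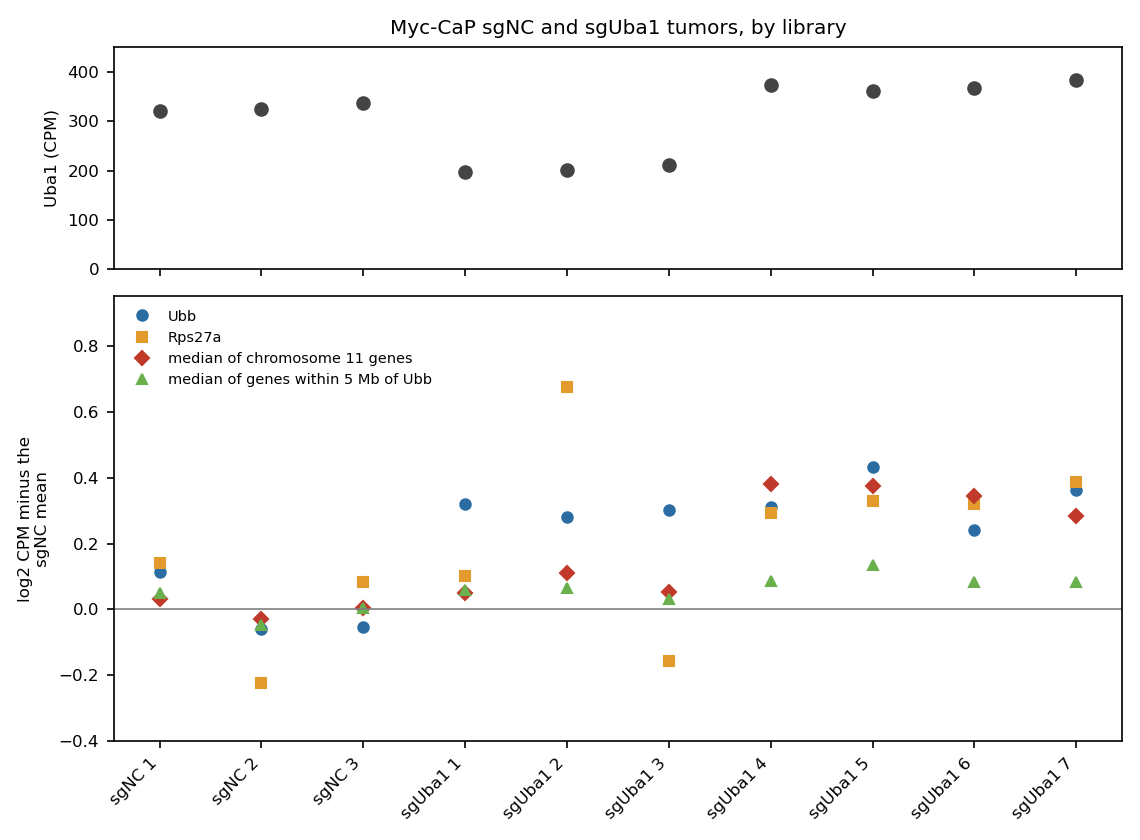
For each of the 10 tumors of the Myc-CaP sgUba1 experiment, the upper panel plots Uba1 (CPM) and the lower panel plots, as log2 CPM minus the sgNC mean, Ubb, Rps27a, the median of chromosome 11 genes and the median of genes within 5 Mb of Ubb. Ubb lies above all sgNC tumors in all 7 tumors labelled sgUba1, whereas the chromosome 11 median is at 0.28 to 0.38 only in replicates 4 to 7.

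With Uba1 OE, where Uba1 rose by 1.27 on the log2 scale, both ubiquitin genes had higher values that did not pass the test. Ubb was at 436, 472 and 437 CPM in empty-vector tumors and at 479, 506, 483 and 529 CPM with OE (0.16, 95% interval −0.02 to 0.33, adjusted p = 0.311, edgeR). Rps27a was at 659, 703 and 650 CPM and at 920, 792, 746 and 765 CPM (0.27, 95% interval 0.06 to 0.47, adjusted p = 0.197). Neither gene overlapped between the groups, as held for 20.7% of genes here, while 0.0269% of genes passed the adjusted test. Those were 4 genes, and the count was 386 without OE replicate 1, 153 without OE replicate 4 and 0 without empty-vector replicate 2 or 3 (edgeR). OE replicate 1 had the highest Rps27a, and in it the 76 genes near Ubb stood 0.37 and the 28 near Rps27a 0.26 above the empty-vector mean, with 0.08 over all genes. T and NK cell markers summed to 5.04 to 8.59 TPM with OE and to 13.1 to 17.3 in empty-vector tumors (0 of 2 tested called), and skeletal muscle markers to 3.82 to 410 TPM against 7.43 to 8.55 (0 of 3 tested called). Prostate epithelial markers summed to 1460 to 2037 TPM with OE and to 2202 to 2541 in empty-vector tumors (0 of 3 tested called). Sums of macrophage, fibroblast and endothelial markers overlapped. The part of any of these cells in the values of Ubb and Rps27a was not tested.

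In tumors of mice given TAK-243 neither gene passed the test. Ubb was between 420 and 515 CPM (median of the 6 tumors 465) with vehicle and at 452, 435, 445, 411 and 492 CPM with TAK-243. The difference was −0.05 (95% interval −0.21 to 0.11, adjusted p = 0.771, edgeR), from −0.091 to −0.017 with 1 tumor left out, and 0.028 on the TPM scale. Rps27a was between 676 and 876 CPM (median 752) with vehicle and at 677, 657, 814, 567 and 828 CPM with TAK-243, a difference of −0.11 (95% interval −0.34 to 0.13, adjusted p = 0.662, edgeR), from −0.18 to −0.039 with 1 tumor left out. The groups overlapped for both genes, where 0.145% of genes passed the test and 2.03% did not overlap. Of the 20 heat shock factor targets 0 were called by edgeR in these tumors (0 at an unadjusted p under 0.05, and 0 by DESeq2), where Hspa1a was at 0.34 (adjusted p = 0.673) and Dnajb1 at 0.18 (adjusted p = 0.807), and the doses and times were not matched to those in cells. The same 20 genes gave 0 calls by edgeR in the OE tumors (3 at an unadjusted p under 0.05, and 1 by DESeq2).

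In B16-BL6 tumors Uba1 fell by 0.92 and the ubiquitin genes stayed within narrow intervals. Ubb was at 885, 854 and 791 CPM in sgNC and at 823, 892, 885 and 832 CPM in sgUba1 (0.02, 95% interval −0.12 to 0.17, adjusted p = 0.885, edgeR). Rps27a was at 505, 530 and 477 CPM and at 493, 518, 498 and 478 CPM (−0.02, 95% interval −0.16 to 0.12, adjusted p = 0.897). Both genes overlapped between the groups, against 15.3% of genes that did not, and 0.724% of genes passed the test. By edgeR, 0 of 20 heat shock factor targets were called (2 at an unadjusted p under 0.05, and 1 by DESeq2), as were 0 of 33 proteasome genes (3 at that p, and 0 by DESeq2). Whether the effect of sgUba1 on Ubb differed between the tumor models was not tested.

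The genes most like each member were found from log2 CPM centred within each experiment, over 12493 genes and 51 libraries that share depth and batch within an experiment. For Ubb the highest Pearson r were those of Rpl36 (0.69), a large-subunit ribosomal protein gene, Bak1 (0.67), which promotes apoptosis, Ranbp3 (0.67), Nosip (0.67) and Sf3a1 (0.66), a splicing factor. For Rps27a they were Cct4 (0.87), a subunit of the TRiC chaperonin, Pes1 (0.78), which acts in ribosome assembly, Mrip-ps (0.76), Map2k4 (0.73), a stress kinase, and Rpl15 (0.72). The r between Ubb and Rps27a was 0.54. Of the genes most like Rps27a, Cct4 (chr11:22990519-23003780), Pes1 and Map2k4 lie on chromosome 11 as both members do. Mrip-ps lies on chromosome 7 and Rpl15 on chromosome 14. Of those most like Ubb only Sf3a1 lies on chromosome 11, while Rpl36, Bak1 and Ranbp3 lie on chromosome 17 and Nosip on chromosome 7.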

How the data were processed

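RNA of 35 mouse tumors and 16 cultures was sequenced. For every gene the authors deposited an expected count, estimated by the quantifier and often fractional, and a TPM, which corrects for length. The submitters' processing notes name kallisto and mm10. The annotation is not given in the sources used here. The paper's methods describe digestion of ribosomal RNA, whereas the labels describe poly-A selection. The design had assumed whole counts, so expected counts were rounded.

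Calculations used R 4.3.3, edgeR 4.0.16, limma 3.58.1 and DESeq2 1.42.0. Each of the 6 experiments was fitted alone on all its genes after filterByExpr with TMM factors. The 12 comparisons were tested by quasi-likelihood in edgeR. Adjustment (Benjamini-Hochberg) ran over all genes tested, with a threshold of 0.05. CPM use the TMM factors. Log2 CPM have a prior count of 2, and TPM tests used limma on log2(TPM + 1). On simulated data with 200 genes changed 2-fold, 52.5% (Myc-CaP sgUba1 tumors) to 100% (cells) were recovered. In these data 5 to 13 unchanged genes were called, and 0 had the sign reversed. All fitted changes of the members were smaller than 2-fold, so these shares do not say how often changes of their size are found. A total of 0 columns belonged to no sample, and 0 of the 75 pairs of replicates were identical, each differing beyond counting noise (chi-square per degree of freedom of at least 1.84).

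The members and gene lists were chosen with earlier results of these data known. Both members were named in every comparison. From a list, up to 2 rising and 2 falling genes were named where a member passed, and Uba1, Hspa1a, Hspa1b, Dnajb1, Hspa8, Usp14 and Fau could be named anywhere. The 5 most alike genes were named for each member, and Ubb-ps and the genes of the same chromosome were chosen after their values were seen, as was the promoter search. Sequences and positions came from GENCODE M21 on GRCm38, in which 39867 of 40077 gene IDs had a position. Other genes that encode ubiquitin are not reported here.

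The alternatives were RLE factors, no filter, DESeq2, limma-voom, log2(TPM + 1), log2(TPM + 0.1), counts of copies added, only the groups compared, a block for the replicate number, and each library left out in turn.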

Additional observations from a re-analysis of the deposited data

Results flagged for a closer look

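Among the 7 Myc-CaP tumors labelled sgUba1, replicate 2 had 3024 TPM of Rps27a, while the other 6 had 1701 to 2184 TPM. Its gap to the next tumor was 0.635 of the whole range of the group, above the critical value for 7 samples. In the same tumor Ubb was at 658 TPM, within the range of the others. Chance marks about 1 in 20 groups in this way, and 15 sets of values were examined.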

How the results depend on the processing

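For the 24 tests of the members, 137 of 150 values with 1 library left out and 176 of 204 under the other alternatives of processing kept direction and side of the threshold, and the cause of the exceptions was not tested. On log2(TPM + 1) and log2(TPM + 0.1) the sign turned for Rps27a with sgUba1 in B16-BL6 tumors (0.020 in both), Ubb with TAK-243 in tumors (0.028), the sgUba1 interaction of Ubb (−0.0036), the TAK-243 interactions of Ubb (0.024) and Rps27a (0.12), and Rps27a with IFN-γ in control cells (−0.16). There the calls were lost for Rps27a with sgUba1 under IFN-γ (0.28), Ubb with TAK-243 under IFN-γ (−0.064) and Ubb with IFN-γ (0.021). DESeq2 called Ubb in Myc-CaP sgUba1 tumors (0.32) and lost Ubb with TAK-243 (−0.073), as did RLE (−0.063) and added copies (−0.066). Rps27a with IFN-γ was lost with RLE (0.070, adjusted p = 0.051, edgeR) and with only the groups compared (0.035). The TAK-243 interaction of Ubb was called without the filter (−0.16), in limma-voom (−0.15) and with copies added (−0.17).

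With 1 library left out, Ubb in B16-BL6 tumors ranged from −0.020 to 0.061 and was below 0 without sgNC replicate 4 (−0.020) or sgUba1 replicate 2 (−0.0016), and Rps27a there from −0.059 to 0.016 (above 0 without sgNC replicate 2). In sgUba1 cells Rps27a ranged from 0.012 to 0.17 without and 0.23 to 0.36 with IFN-γ, and Ubb with IFN-γ from −0.032 to 0.069 (above 0 without sgUba1 + IFN-γ replicate 2). Rps27a with IFN-γ in sgNC cells ranged from 0.012 to 0.17. The interaction ranged from −0.0066 (without sgNC replicate 1) to 0.12 for Ubb and from 0.085 to 0.27 for Rps27a (0.25, adjusted p = 0.0114, edgeR, without sgNC replicate 2). With TAK-243 Ubb ranged from −0.16 to −0.062, and with IFN-γ in control cells Rps27a ranged from 0.054 to 0.098.

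Same-numbered samples did not deviate together, with correlations from −0.253 to 0.309 over pairs of groups and no experiment in which all exceeded 0.1. A block for the replicate number, fitted on the numbers that all groups share, called the TAK-243 interaction of Ubb (−0.15, adjusted p = 0.0309, edgeR) and changed no other call. DESeq2 and edgeR called 523 and 127 genes in B16-BL6 tumors, 1820 and 492 in Myc-CaP sgUba1 tumors, 695 and 4 with Uba1 OE, 542 and 25 with TAK-243 in tumors, 2381 and 4216 with IFN-γ in control cells, 387 and 603 in sgNC cells, and 218 and 347 for the TAK-243 interaction. With 1 library left out, edgeR called 43 to 320 genes in B16-BL6 tumors, 10 to 692 in Myc-CaP sgUba1 tumors, 0 to 386 with Uba1 OE, 1 to 299 with TAK-243 in tumors, 35 to 2721 with IFN-γ in sgNC cells, 14 to 2622 for the sgUba1 interaction (720 with all libraries), 85 to 329 for the TAK-243 interaction and 2932 to 5641 with sgUba1 in cells without IFN-γ (4618 with all libraries). With 2 cultures a group, the number of samples limits the precision.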
